A study of Ovis aries with 8 samples.

Results

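The untreated islet transcriptome of the near-term sheep fetus is described here from the 4 fetuses labelled Saline-Control 1 to 4 (controls 1 to 4 from here on), which are 4 of the 8 in the series and were chosen by that label. The other 4 fetuses received norepinephrine and are not analysed here. All were Columbia-Rambouillet singletons. The controls received the diluent intravenously (saline of 0.9% with ascorbic acid at 0.3%), over the 7 days named for the infusion. Islets were hand-picked after isolation, and their messenger RNA was sequenced. Hand-picking selects islets and not single cells, so each library mixes endocrine cells with whatever other cells came with them. In such bulk samples, fewer cells of a type and less RNA per cell cannot be told apart. Control 1 (140 days of gestation, 5 kg), control 3 (140 days, 4.2 kg) and control 4 (140 days, 4 kg) were male. Control 2 was the only female of the 4, the youngest at 139 days and the lightest at 3.6 kg, and its animal number starts with 09 where the others start with 10. Those 4 features cannot be told apart in what follows.

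Pancreatic islets are small clusters of endocrine cells set in the exocrine pancreas. Alpha cells make glucagon, beta cells make insulin and delta cells make somatostatin, and all of them package their peptides with granins in dense-core granules acidified by a proton pump. Before birth, islets already secrete hormones, and fetal insulin acts as a growth factor for the fetus.

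Values are FPKM, which divide the fragments of a transcript by its length and by the size of the library, so levels can be set beside each other per unit of transcript length. No comparison between groups was made. With 1 group, every statement is a description with its spread over animals, given as a standard deviation (SD) or as a coefficient of variation (CV, the SD as a percentage of the mean).

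Of 25000 rows, 13133 had a mean of at least 1 FPKM (52.5%), 8197 of at least 10, 1332 of at least 100 and 121 of at least 1000. A total of 12256 rows reached 1 FPKM in every animal, and 7336 were listed at 0 in all 4. Rows above 0 numbered 16102 to 16519 per animal. Summed FPKM was 768021 in control 1, 1112624 in control 2, 796139 in control 3 and 796149 in control 4. The median FPKM over the expressed rows of an animal was nevertheless alike, from 15.5 to 15.8, so the larger sum of control 2 lay in its abundant rows. It took 311 rows to reach 50% of the summed mean FPKM. When each animal's rows were ranked by that animal alone, reaching 50% took 394 rows in control 1, 205 in control 2, 336 in control 3 and 365 in control 4.

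**Figure D1:**
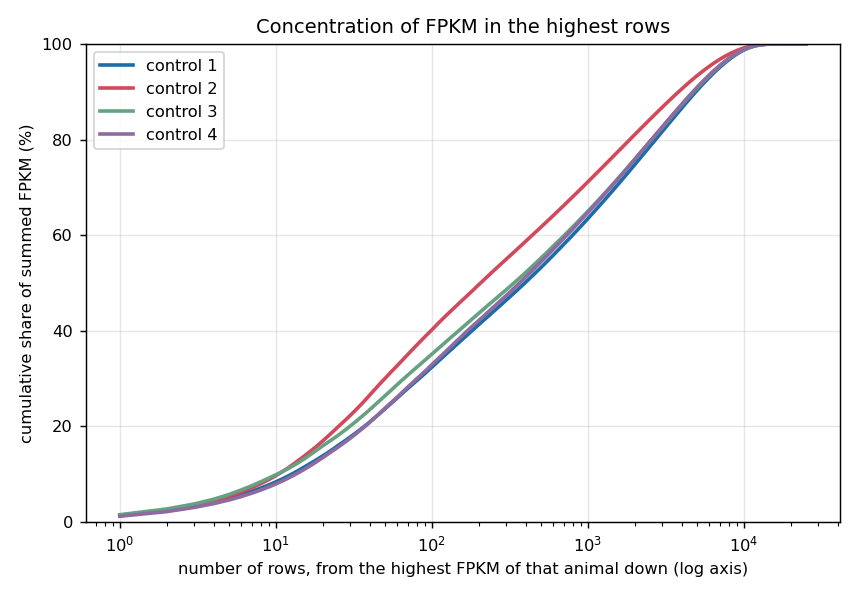
Cumulative share of an animal's summed FPKM (vertical axis, percent) against the number of rows taken from its highest down (horizontal axis, log scale), with 1 line per control animal. Control 2 rises above the other 3 lines from about the tenth row on, and the 100 rows of highest mean FPKM held 34.7 ± 3.59% of the sum.

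Among named rows, the most abundant transcripts included genes of protein synthesis, protein export and granule acidification. ATP6V0C, the proteolipid of the vacuolar proton pump, headed the table at 9977, 16181, 12310 and 9781 FPKM in controls 1 to 4, but its row spans only 135 bp. SERP1, a stress-associated protein of the endoplasmic reticulum, followed at 6055, 10466, 8349 and 7655 FPKM. RPS28 and RPL19, of the small and the large ribosomal subunit, averaged 6098 ± 2630 and 5911 ± 2072 FPKM (SD, n = 4). DLK1, an imprinted Delta-like growth regulator (chromosome 18, 64328206 to 64334917, build Oar_v3.1), stood at 5011, 11815, 4725 and 3784 FPKM. RBP4, the retinol carrier, stood at 4994, 9369, 6118 and 4652 FPKM. Both DLK1 and RBP4 were highest in control 2, and DLK1 there was more than any of the other 3 by a wide gap. Of the 30 highest rows, 10 were ribosomal proteins, 3 were rows of the mitochondrial chromosome, 8 carried only an Ensembl identifier that the files do not pair with a name, and 27 were highest in control 2, beside 45.0% of all 13133 expressed rows.

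The granule machinery was abundant and its total share was stable. The 20 granin and prohormone-processing rows held 1.50 ± 0.0612% of summed FPKM (1.44, 1.58, 1.48 and 1.50% in controls 1 to 4), and 14 of them averaged at least 100 FPKM. Their own summed FPKM was less even, at 11055, 17624, 11771 and 11905. CHGA (chromogranin A, a granule core protein, chromosome 18, 56508336 to 56521129) ranked 28 of all rows at 3202, 6212, 3255 and 2895 FPKM. SCG5 (the 7B2 chaperone of prohormone convertase PCSK2) stood at 2471, 4972, 2828 and 2668 FPKM. In both, control 2 lay far above the other 3 animals, which were close together. SCG3, which anchors granins to the granule membrane, was nearly level at 1920, 2083, 1899 and 2494 FPKM. CHGB, the other classical chromogranin, was listed far lower, at 57.1, 39.1, 30.04 and 29.8 FPKM. Among the enzymes that cut and trim prohormones, CPE (carboxypeptidase E) averaged 578 ± 109 FPKM, PCSK2 459 ± 164 and PCSK1 351 ± 59.0. The order of the convertases was not the same in every animal. PCSK2 exceeded PCSK1 in controls 1 to 3 (435 against 299, 693 against 306 and 401 against 377 FPKM) and was below it in control 4 (310 against 422 FPKM). SLC30A8, the granule zinc transporter of beta cells, was only 2.29 ± 0.613 FPKM.

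The exocytosis machinery held 0.168 ± 0.0276%, with all 27 rows at 1 FPKM or more. CPLX2, a complexin that clamps and primes fusion, led at 255, 176, 253 and 197 FPKM. Synaptotagmins SYT5 and SYT13 averaged 138 ± 12.5 and 135 ± 8.56 FPKM. SYT4 was among the steadiest transcripts of the class in FPKM as deposited, at 78.5, 78.0, 82.4 and 80.3 FPKM. SNAP25, the plasma-membrane partner in granule fusion, was 33.0 FPKM in control 2 and 12.0 to 14.1 FPKM in the others.

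Hormone precursors were uneven between animals. Their share was 0.525% in control 1, 0.198% in control 2, 0.170% in control 3 and 0.280% in control 4 (mean 0.293 ± 0.161%), a 3.09-fold range. This is not a share of all hormone RNA. No row carried the symbol INS or PPY, and IAPP (the amyloid peptide released with insulin) was listed at 0 in all 4 animals. The ribosomal genes RPL3, RPL5, RPL18 and RPS29, which every cell uses, were also listed at 0, so a 0 in this table can be a failed estimate. Beta-cell hormone output can therefore not be read from these values.

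GCG (glucagon precursor, chromosome 2, 146544014 to 146551954) was the highest named hormone row, at 2434, 1063, 703 and 1191 FPKM. SST (somatostatin precursor, chromosome 1, 197885693 to 197888971) was 928, 192, 113 and 338 FPKM. Control 1 was highest and control 3 lowest for both hormones, with controls 2 and 4 between. GHRL (ghrelin precursor, made by epsilon cells in fetal islets) was 45.8, 7.15, 16.5 and 21.7 FPKM, and PYY (peptide YY) was 7.09, 2.48, 2.56 and 2.30 FPKM. Both again peaked in control 1. The order of UCN3 (urocortin 3, a peptide of maturing beta cells) was another one, with 556 FPKM in control 1, 887 in control 2, 455 in control 3 and 613 in control 4. GAL (galanin) and NPY (neuropeptide Y) were low and less variable, at 32.5 ± 6.02 and 15.6 ± 2.91 FPKM.

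GCG, SST and GHRL, 3 of the 6 hormone rows at a mean of at least 10 FPKM, were at least 2-fold higher in control 1 than in the mean of the other 3, where 0.622% of all 8197 rows were. SST was 4.33 times and GCG 2.47 times the mean of the other animals, the largest such ratios in control 1 among rows with a gene symbol, a locus of at least 300 bp, a mean of at least 50 FPKM and no zero.

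Islet transcription factors also often peaked in control 1: it was the highest animal for 11 of the 19 expressed factors, beside 21.1% of all 13133 expressed rows. Some factors of the list, chosen here after their values were seen, stood out in control 1 alone. IRX1, a homeobox factor of alpha cells, was 9.37, 1.32, 2.50 and 1.49 FPKM. FEV, a serotonergic and endocrine-lineage factor, was 7.98, 2.09, 1.49 and 1.84 FPKM. NEUROG3, the factor that commits progenitors to the endocrine lineage, was 1.06 FPKM in control 1 and listed at 0 in the other 3. Its mean was therefore under 1 FPKM, so it is not among the 19, and a listed 0 can be a failed estimate. For each of the 3 factors control 1 lay above all other animals, at low levels. CRYBA2, a crystallin found in alpha cells, was also highest in control 1, at 28.1, 10.6, 4.38 and 6.27 FPKM. TTR, transthyretin, which alpha cells also make, did not separate control 1 in this way: controls 1 and 2 were high (301 and 347 FPKM) and controls 3 and 4 low (115 and 123 FPKM). CRYBA2 was chosen after its values were seen. Of the 11 rows in their list of other alpha- and delta-cell markers, 4 were highest in control 1 and 4 in control 2. The list held 0.771, 0.928, 0.832 and 0.667% in controls 1 to 4. RBP4 alone was 89.2% of it, so these shares mostly follow RBP4 and say little of the other markers. LOXL4, on the same list and also chosen after its values were seen, was lowest in control 1, at 4.25, 14.9, 9.97 and 12.6 FPKM. GLP1R, the incretin receptor of beta and delta cells, was 10.4 FPKM in control 1 and 2.82, 1.42 and 1.61 FPKM in controls 2 to 4.

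**Figure D2:**
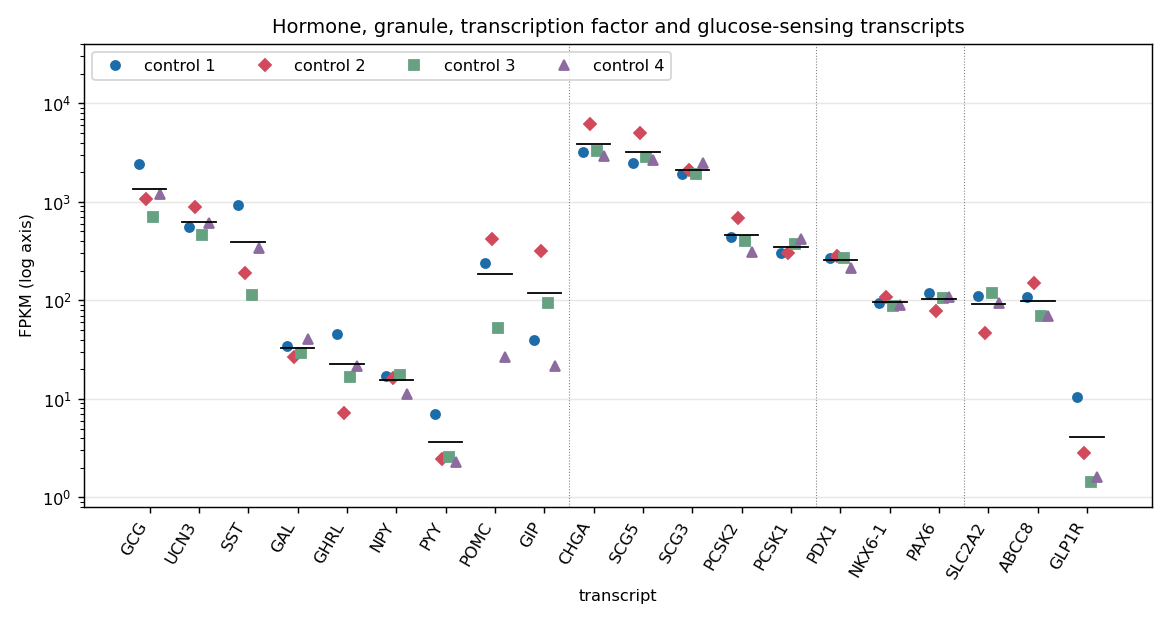
FPKM (log axis) of peptide precursors, granule proteins, islet transcription factors and glucose-sensing genes, with 1 marker per control animal and a line at the mean of 4. SST spans 113 to 928 FPKM and GCG 703 to 2434, whereas SCG3 spans 1899 to 2494 and PDX1 211 to 279.

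The transcription factors of islet identity were moderate in level and held 0.1001 ± 0.0186% of summed FPKM. PDX1, required for pancreas formation and beta-cell function, was highest at 270, 279, 268 and 211 FPKM. PAX6, a pan-endocrine factor, was 119, 77.2, 106 and 107 FPKM, lowest in control 2. NKX6-1, a beta-cell factor, was 94.5, 109, 87.9 and 90.3 FPKM. The beta-cell maturity factor MAFA was present only in a merged row with other genes and gives no value of its own. INSM1 averaged 54.2 ± 16.9, ISL1 36.1 ± 5.62 and NKX2-2 18.9 ± 4.83 FPKM, all 3 being factors of endocrine differentiation. The median CV over this class was 19.6%, beside 20.4% over all expressed rows.

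Glucose-sensing and secretion-coupling genes held 0.0670 ± 0.00780%. ABCC8, the sulfonylurea-receptor subunit of the ATP-sensitive potassium channel, was 107, 150, 69.4 and 69.4 FPKM. SLC2A2, the low-affinity glucose transporter GLUT2, was 110, 46.5, 118 and 94.7 FPKM, and was the 1 gene of 11 in this class at least 2-fold lower in control 2, where 2.13% of all rows were. SLC2A1 and SLC2A3, the transporters of higher affinity, averaged 44.4 ± 12.4 and 60.9 ± 9.35 FPKM. G6PC2, an islet glucose-6-phosphatase subunit, averaged 77.9 ± 14.7 FPKM. ADRA2A, the adrenergic receptor through which catecholamines restrain insulin secretion, was 49.5, 72.8, 61.2 and 43.0 FPKM in these animals. HK1, a hexokinase usually kept low in mature beta cells, was 22.9 ± 1.72 FPKM.

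Ribosomal proteins were the largest class at 10.8 ± 1.44% of summed FPKM. Shares were 9.74, 12.9, 10.3 and 10.1% in controls 1 to 4, so control 2 stood above the rest. Of 51 rows, 39 averaged at least 1 FPKM, 25 were among the 100 highest and 6 were listed at 0 in every animal. RPL19 was 4490, 8987, 4950 and 5219 FPKM, and RPLP0 was 3257, 7188, 3732 and 3711 FPKM. Reads of ribosomal proteins can be split with their many processed copies in the genome, which makes single rows uncertain. Translation factors held 0.648 ± 0.0230%, led by EIF1, which selects the start codon, at 1246 ± 364 FPKM and by TPT1 at 1158 ± 175 FPKM.

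Respiratory transcripts came from both genomes. The 59 nuclear-encoded rows held 1.80 ± 0.165% (1.63, 2.03, 1.76 and 1.79%), and the 8 rows on the mitochondrial chromosome held 1.81 ± 0.394% (2.02, 2.24, 1.36 and 1.64%). Without the 10 highest rows of the table the shares were 1.97 and 1.14%. UQCR10 of complex III led the nuclear set at 1265, 2735, 2014 and 1657 FPKM. COX4I1 of cytochrome oxidase averaged 1035 ± 290 FPKM. The mitochondrial rows merge several genes: 3 of them held 100.0% of that share, and the row with cytochrome b was 6736, 9219, 5006 and 6015 FPKM. Because poly(A)-selected RNA was sequenced and 4 of the 8 mitochondrial rows were at 0, this share is not a full count of mitochondrial RNA. Mitochondrial ribosomal proteins held an even share, 0.513 ± 0.0165% over 65 rows, with a median of 54.1 FPKM per member and 14 members at 100 FPKM or more. Their own summed FPKM was less even, at 3794, 5888, 4010 and 4168 in controls 1 to 4. Glycolytic genes held 0.405 ± 0.0679%, of which GAPDH made up 47.7%, at 1098, 2666, 1531 and 1559 FPKM. LDHA, lactate dehydrogenase A, a gene that mature beta cells keep low, was 40.2, 115, 48.9 and 52.7 FPKM. Control 2 was highest and control 1 lowest for both GAPDH and LDHA.

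The secretory pathway and growth genes filled further space in the libraries. Chaperones and translocation factors of the endoplasmic reticulum held 0.881 ± 0.0678%, with P4HB (protein disulfide isomerase) at 1112 ± 363 FPKM, CALR (calreticulin) at 1002 ± 128 and HSPA5 (BiP) at 740 ± 124. Imprinted and fetal growth genes held 1.04 ± 0.180%, of which DLK1 was 69.0%. PEG10, a retrotransposon-derived imprinted gene, was 2385, 922, 2872 and 1915 FPKM, lowest in control 2 where DLK1 was highest. IGF2, the fetal insulin-like growth factor, was 279, 500, 352 and 252 FPKM. Proliferation genes were low. PCNA and MCM7, which serve DNA replication, averaged 101 ± 11.7 and 86.2 ± 5.60 FPKM, whereas MKI67 averaged 1.70 ± 0.233 FPKM, and the class held 0.0305 ± 0.00391%. Control 1 was the highest animal for 9 of its 15 expressed members, beside 21.1% of all expressed rows. Immediate-early and heat-shock genes, which tissue handling can induce, held 0.134 ± 0.0110%, led by HSPA8 at 365 ± 85.6 FPKM. JUNB was 207, 233, 142 and 141 FPKM.

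**Figure D3:**
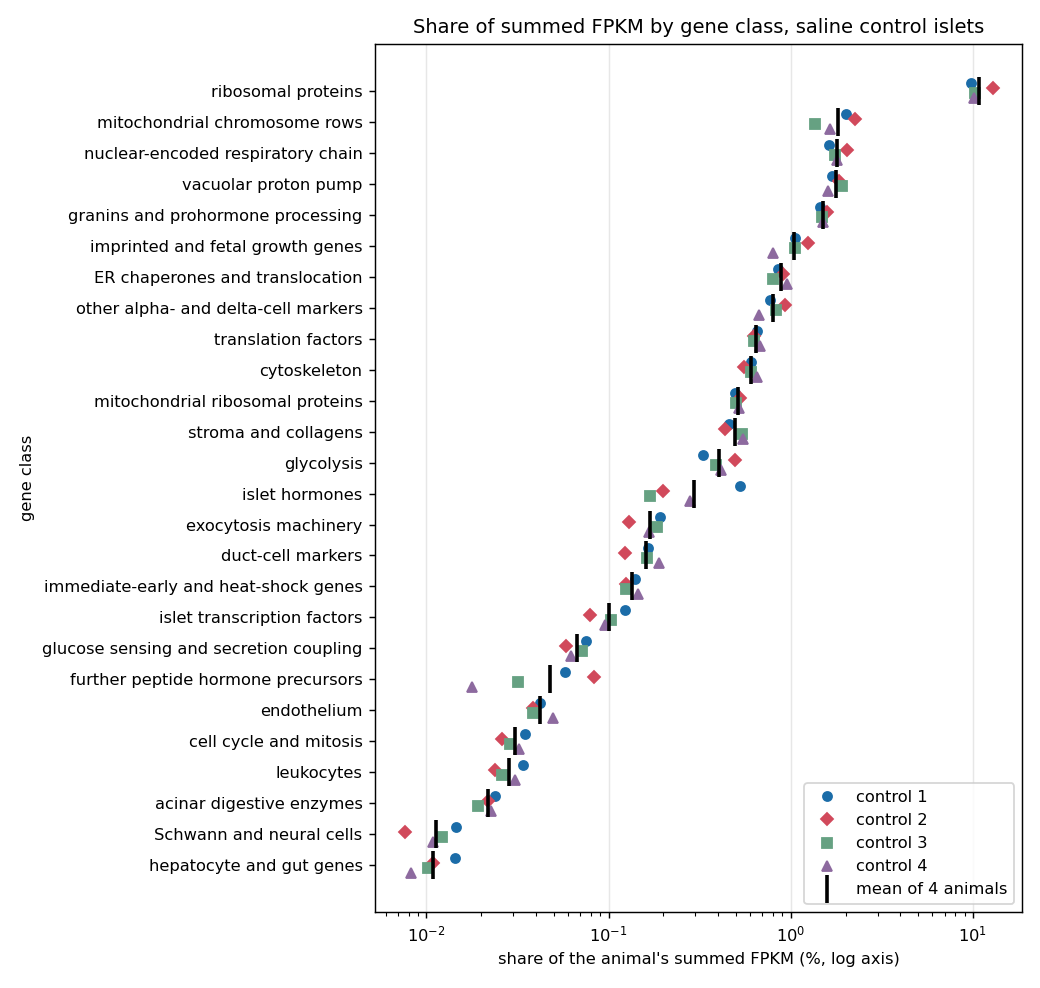
Share of an animal's summed FPKM (horizontal axis, percent, log scale) for 26 gene classes, ordered by the mean of the 4 animals, which a bar marks; each marker is 1 animal. Ribosomal proteins lie near 10.8% and acinar enzymes near 0.0219%, and hormones spread from 0.170 to 0.525%.

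Markers of other cell types checked how far the material was islet. Acinar digestive enzymes held 0.0219 ± 0.00192% (0.0238, 0.0219, 0.0193 and 0.0227%), with 11 of 16 rows at 1 FPKM or more and none at 100; 32 enzymes were listed, and the other 16 had no row under their symbol. CPA1, a pancreatic carboxypeptidase, was highest at 63.0 ± 12.2 FPKM. PNLIP, pancreatic lipase, averaged 0.0177 FPKM, and PTF1A, the acinar master regulator, 0.867 FPKM. CPB1, another carboxypeptidase, was 39.0 FPKM in control 1 and 15.5 to 16.7 FPKM in the others. Duct markers held 0.160 ± 0.0279%, but KRT8, a keratin that endocrine epithelium also expresses, was 86.3% of it at 1142, 1147, 1119 and 1292 FPKM. The duct and progenitor factor SOX9 was 4.33 ± 0.257 FPKM, and CFTR, the duct chloride channel, 0.555 ± 0.293. Albumin (ALB) and alpha-fetoprotein (AFP), the main liver secretory proteins, were 0.112 and 0.0162 FPKM. The hepatocyte and gut list as a whole held 0.0109 ± 0.00253%, of which 93.6% was SERPINA1, a liver-made protease inhibitor, at 106, 109, 77.7 and 60.5 FPKM. APOA1, an apolipoprotein, averaged 4.89 FPKM. Of 14 listed red-cell genes, 11 had no row under their symbol and 3 were all under 1 FPKM. A beta-globin row under another symbol, HBBB, was 6.94, 2.52, 1.86 and 8.03 FPKM.

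Stroma held 0.496 ± 0.0582%, on average more than the hormone rows listed by symbol, though not in control 1. VIM (vimentin) was 42.6% of it at 1526, 2457, 1643 and 1632 FPKM, and SPARC, a matrix glycoprotein, was 336, 580, 470 and 526 FPKM. The basement-membrane collagen COL4A1 was even, at 239, 273, 251 and 275 FPKM. Interstitial matrix was less so. FN1 (fibronectin) was 42.6, 39.4, 107 and 77.7 FPKM, POSTN (periostin) was 41.8, 36.7, 97.9 and 73.8 FPKM, and PDGFRB, the receptor of pericytes and mesenchyme, was 34.9, 35.8, 61.3 and 70.8 FPKM. In each of these 3 genes, controls 3 and 4 lay above controls 1 and 2. The same held for 13 of the 24 stromal rows, beside 14.6% of all 13133 expressed rows. Controls 3 and 4 had stromal shares of 0.543 and 0.549%, and controls 1 and 2 had 0.456 and 0.437%. Control 1, with the highest hormone share, thus had a lower stromal share than controls 3 and 4, but control 2 had low shares of both. In summed FPKM the order was another one: stroma came to 3500, 4858, 4322 and 4370 FPKM in controls 1 to 4, highest in control 2, and hormone rows to 4029, 2207, 1350 and 2226 FPKM. The part of stroma in the hormone values was not tested.

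Endothelial markers held 0.0421 ± 0.00510% and leukocyte markers 0.0285 ± 0.00449%. PLVAP, a protein of fenestrated capillaries, led the former at 88.1 ± 15.9 FPKM. EMCN (endomucin) was 56.1 FPKM in control 4 and 36.4 to 36.8 FPKM in the other 3. CD14, of monocytes and macrophages, led the latter at 69.8 ± 20.1 FPKM. Schwann-cell and neural markers held 0.0113 ± 0.00288%. S100B, of glia, was 39.4, 22.1, 6.95 and 9.37 FPKM, whereas SOX10, the Schwann lineage factor, was 9.46, 4.21, 11.2 and 8.18 FPKM and did not share that order.

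Spread between animals was moderate for most rows and smaller without control 2. Over 13133 expressed rows the median CV was 20.4% (quartiles 12.8 and 31.0%), and it was 11.2% over the other 3 animals. Across rows, log2(FPKM + 1) correlated at Pearson 0.956 to 0.965 between controls 1, 3 and 4, and at 0.937 to 0.942 in pairs with control 2. These are descriptions across rows, which are not independent replicates. More than 2-fold differences covered 2.21 to 3.28% of rows in the former pairs and 8.99 to 9.25% in the latter.

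Control 2 departed from the others most in abundant rows. On the log2(FPKM + 1) scale, its median difference from the mean of the other 3 was -0.07 for rows of 1 to 10 FPKM, 0.11 for 10 to 100, 0.42 for 100 to 1000 and 0.79 for 1000 and over. By locus length it was 0.34 for rows of 3000 to 10000 bp and -0.15 for rows over 100000 bp. Rows of at least 100 FPKM carried 89.6% of its excess in summed FPKM, and ribosomal proteins alone carried 19.8%. Among 8197 rows at a mean of at least 10, 403 were at least 2-fold higher in control 2 (4.92%) and 175 at least 2-fold lower (2.13%). The other animals gave fewer. There were 51 higher (0.622%) and 114 lower (1.39%) in control 1, 28 higher (0.342%) and 108 lower (1.32%) in control 3, and 26 higher (0.317%) and 123 lower (1.5%) in control 4. With every animal scaled to the same summed FPKM the balance turned, to 77 higher and 1005 lower, and the median over all expressed rows in control 2 then lay at -0.36 on the log2 scale. Whether control 2 has more or fewer high rows therefore depends on the scaling. Shares of summed FPKM do not change, but only because they already divide by each animal's sum. The larger sum of control 2 in abundant rows thus lowers its shares of other rows.

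Of the ribosomal rows, 9 of 37 were at least 2-fold higher in control 2 against 4.92% of all rows, with RPS28 (4028, 9954, 5216 and 5194 FPKM) and RPS20 (2000, 5303, 2569 and 2450 FPKM) among them. Of the glycolytic rows it was 5 of 11, namely TPI1, PGK1, PFKL, LDHA and ALDOC, and of the respiratory rows 7 of 51. As deposited, the median difference of control 2 was 0.79 for ribosomal rows, whose median level was 1085 FPKM. Over all rows of 1000 FPKM and over it was also 0.79. It was 0.93 for glycolytic and 0.73 for respiratory rows, with median levels of 122 and 175 FPKM. Over all rows of 100 to 1000 FPKM it was 0.42. Class and abundance were not separated in these values or in those that follow. With equal totals the median difference of control 2 stayed positive for ribosomal (0.29), glycolytic (0.44) and respiratory rows (0.23), and turned negative or remained so for hormones (-0.84), exocytosis genes (-0.65), transcription factors (-0.41) and stroma (-0.62). Over all expressed rows it was -0.36, so transcription factors lay close to the bulk of rows. Leukocyte (-0.72), neural (-0.67) and duct markers (-0.48) also lay below that median, and granins (-0.21) and endothelium (-0.01) above it.

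**Figure D4:**
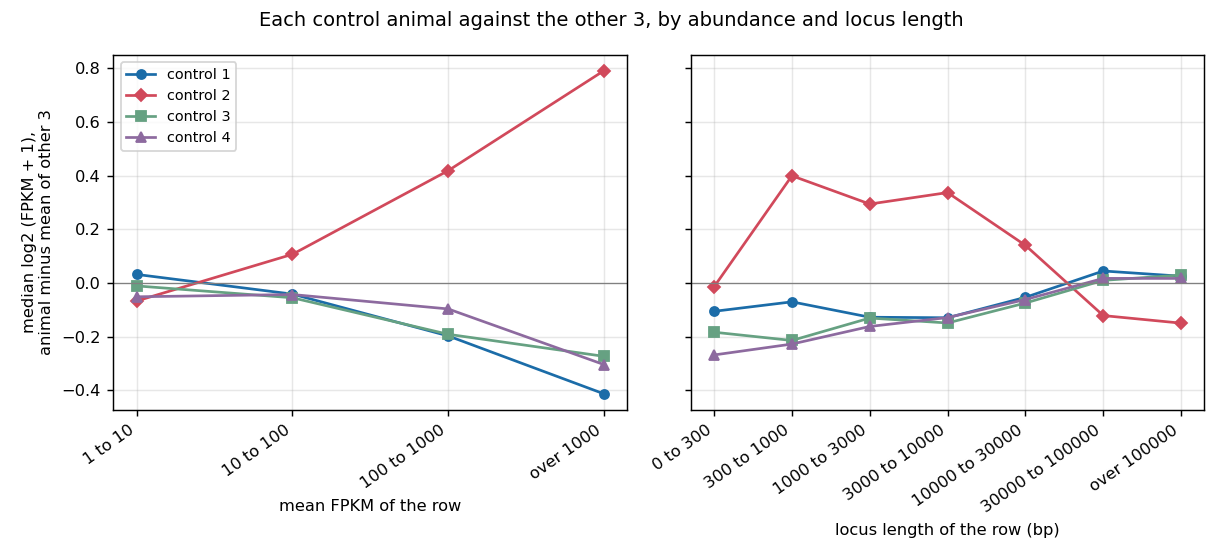
Median difference of each control animal from the mean of the other 3, on the log2(FPKM + 1) scale, for rows binned by mean FPKM (left) and by locus length in bp (right). Control 2 rises from -0.07 to 0.79 with abundance and falls to -0.15 in the longest loci, and the other 3 animals lie below 0 in the most abundant bin; control 2 is part of the mean each of them is set against.

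A small set of transcripts hardly varied in FPKM as deposited. Among rows averaging at least 50 FPKM, EIF4H, a helper of the translation helicase, had the lowest CV, 0.460%, at 336, 333, 336 and 337 FPKM. AAGAB, an adaptor-complex chaperone, followed at a CV of 1.30% (56.7, 57.8, 56.3 and 57.7 FPKM). PPP1CB (a phosphatase catalytic subunit) and ZC3H15 had CVs of 1.35 and 1.54%. This depends on the scaling: with every animal at the same summed FPKM, EIF4H became 379, 260, 366 and 367, a CV of 16.3%, and control 2 was lowest for all 4 genes.

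The most variable transcripts with a gene symbol, a locus of at least 300 bp and a value above 0 in every animal were led by peptide precursors and metallothioneins. GIP, the incretin of gut K cells that fetal islets can also make (chromosome 11, 37122649 to 37125843), was 39.2, 314, 94.5 and 21.7 FPKM, a CV of 115%. POMC, the precursor of ACTH and endorphin (chromosome 3, 32466656 to 32469942), was 237, 417, 52.5 and 26.5 FPKM. Controls 1 and 2 were high for POMC, while control 2 alone was high for GIP. The metallothioneins MT1A and MT2, which bind zinc and copper, were 39.2, 192, 15.5 and 73.2 FPKM and 145, 677, 132 and 149 FPKM. WFDC1, a secreted protease-inhibitor-like protein, was 35.4, 162, 39.3 and 33.5 FPKM, and the stress-response gene GADD45A was 130, 382, 104 and 105 FPKM. Control 2 was the highest animal in all 6 of these, beside 45.0% of all 13133 expressed rows. They were picked by their spread, so outlying values of control 2 helped to select them. SST, highest in control 1, also belonged to this group at a CV of 93.9%. The interferon-induced genes IFI6 (76.2, 43.2, 123 and 26.0 FPKM) and MX1 (76.6, 20.9, 98.0 and 45.1 FPKM) peaked in control 3.

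**Figure D5:**
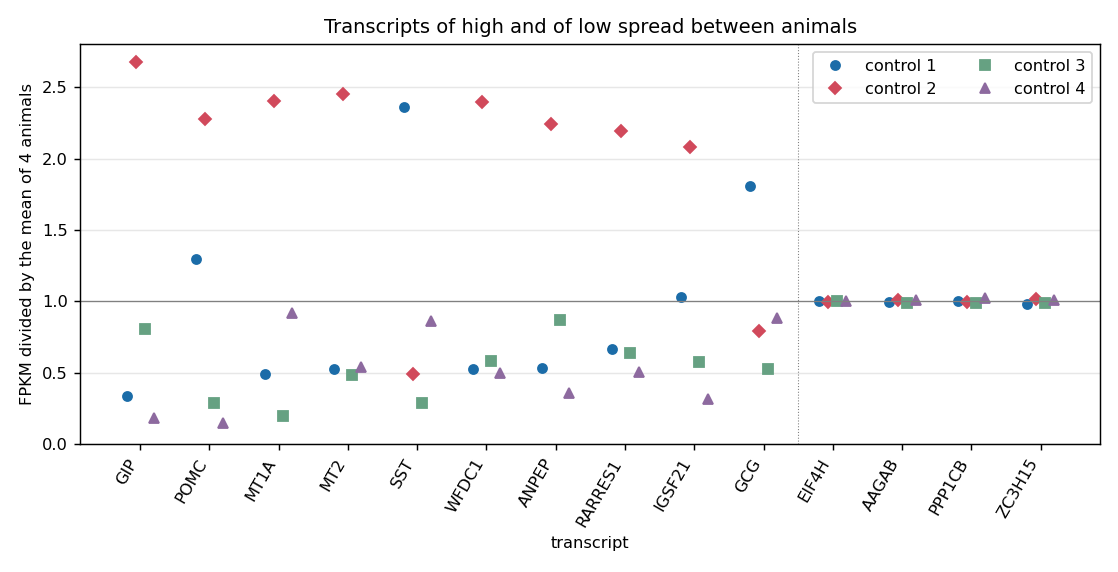
FPKM of each control animal divided by the mean of the 4 (vertical axis, starting at 0) for transcripts of high spread (left of the dotted line, with GCG added) and of low spread (right). Control 2 has the highest marker for GIP, POMC, MT1A, MT2, WFDC1, ANPEP, RARRES1 and IGSF21, control 1 for SST and GCG, and the 4 steady transcripts, in FPKM as deposited, lie at the line of the mean.

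Very short rows limit the top of the ranking. Loci under 300 bp made up 2800 rows, of which 190 averaged at least 1 FPKM, and they held 6.44 to 7.75% of summed FPKM, including ATP6V0C, POLR2L (a polymerase subunit, 105 bp) and THYMB4X (thymosin beta 4, 207 bp). Fragment counts are not given for such rows, and a high FPKM there may rest on very few fragments. Of 5 non-zero rows of 108 bp in control 1, 4 had exactly 300.54 FPKM, as equal fragment counts would give. The X-inactivation row Xist_exon4 (126 bp) was 208 FPKM in control 2 and listed at 0 in the 3 males, and the same limit applies to it. Xist_exon1 (85 bp) and XIST_intron (68 bp) were listed at 0 in all 4 animals.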

How the data were processed

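Islet RNA of 4 saline control fetuses was read from 1 deposited table of FPKM values, which the authors made with 1 value per animal and row, per the file headers. Its 4 columns of norepinephrine fetuses were not used, and 0 columns belonged to samples outside the series. The submitters' processing notes name TopHat2 2.0.1, Cufflinks 2.1.1, Cuffdiff (no version) and the sheep build Oar_v3.1. Strand handling, annotation and filters: not given in the sources used here. Total fragments are unknown, so no counting interval is given. Locus starts were raised by 1 to 1-based positions. Symbols were checked against the RefSeq table of ARS-UI_Ramb_v3.0 (13316 rows matched), used for names only.

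With 1 group of 4 animals no comparison between groups was tested; an animal far from the others was checked against Dixon's limit. Computed in Python 3.11.15 with pandas 2.3.3 and tested on simulated data were ranks by mean FPKM, the share of summed FPKM per gene class, SD and CV over animals, and rows at least 2-fold from the mean of the other 3 animals, on FPKM plus a pseudocount of 1. A class member is the row with exactly its symbol. Expressed means a mean of at least 1 FPKM; fold counts use at least 10 and rankings of spread at least 50. Named genes are the 30 highest rows, the 3 highest of each class, the 10 of highest and of lowest CV, 3 rows highest and 3 lowest per animal, and a list of islet genes; further class members and rows of at least 300 bp were added after their values were seen, as were 3 of the classes. Of 396 listed members, 82 had no row of their own. Some transcripts that the naming rule includes are not reported here. Members and lists were chosen with earlier results of these data known. Alternatives were equal totals, other pseudocounts, filters and denominators, and leaving out each animal.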

Additional observations from a re-analysis of the deposited data

Results flagged for a closer look

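For 147 values the animal furthest from the rest was compared with Dixon's limit for 4 samples, a gap measured against the group's whole range; chance alone passes about 1 group in 20. In 23 an animal passed: control 2 in 17, control 1 in 3, control 4 in 3 and control 3 in 0. Genes named for a high CV or an outlying animal were picked for such spread, so their passing is partly built in. Among those that passed, MT2, WFDC1 and RARRES1 were such genes. Over all expressed rows 13.2% passed, 10.6% through control 2.

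Control 2 stood apart in summed FPKM (1112624) and in the ribosomal share (12.9%). Its single transcripts were the ribosomal RPL19 (8987 FPKM), RPL31 (7722) and RPLP0 (7188), the granule proteins CHGA (6212) and SCG5 (4972), and DLK1 (11815). It was also high in ATP6V1G1 of the proton pump (1702 FPKM), the stress-inducible IER3 (255), MRPS33 (469), MT2 (677), NAPA of vesicle fusion (239), RARRES1 (512), ubiquitin UBB (4864), VIM (2457) and WFDC1 (162). Control 1 was high in CPB1 (39.0 FPKM), GLP1R (10.4) and PYY (7.09). Control 4 was high in EMCN (56.1 FPKM) and KRT8 (1292) and low in PDX1 (211).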

How the results depend on the processing

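No paired analysis was possible because 1 group was described and no groups were compared. The depth of each library is unknown and animals were few. When each animal was left out in turn, the median CV was 11.2 to 21.8% and the median SD of log2(FPKM + 1) 0.14 to 0.28, lowest without control 2. Every class share stayed within 1 SD, but leaving out 1 animal could not move a mean share by 1 SD, so this is no check. Protein and promoter features were not run, nor were fold counts with an animal left out.

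Class shares depend on the denominator. Over rows with a gene symbol, shares were 1.88% for granins and processing, 0.210% for exocytosis, 0.125% for transcription factors, 1.002% for other alpha- and delta-cell markers, 0.0839% for glucose sensing, 13.5% for ribosomal proteins, 0.810% for translation factors, 2.26% for the respiratory chain and 0.642% for mitochondrial ribosomal proteins. On that base they were 0.0274% for acinar enzymes, 0.2003% for duct markers, 0.621% for stroma, 0.0526% for endothelium, 0.0357% for leukocytes, 0.0136% for hepatocyte and gut genes, 1.10% for the endoplasmic reticulum, 0.758% for the cytoskeleton, 0.508% for glycolysis, 0.167% for immediate-early genes, 0.0381% for cell cycle and 1.30% for imprinted genes, with 2.21% for the proton pump and 2.27% for mitochondrial chromosome rows. Without the 10 highest rows, which include RBP4 and DLK1, other alpha- and delta-cell markers fell to 0.0964% and imprinted genes to 0.374%, the proton pump to 0.417% and mitochondrial chromosome rows to 1.14%. The remaining shares that moved by over 1 SD were then 1.64% (granins), 0.707% (translation factors), 1.97% (respiratory chain), 0.560% (mitochondrial ribosomal proteins), 0.0239% (acinar enzymes), 0.962% (endoplasmic reticulum), 0.661% (cytoskeleton) and 0.146% (immediate-early genes). With loci of at least 300 bp they were 1.62% (granins), 0.699% (translation factors), 0.553% (mitochondrial ribosomal proteins), 0.654% (cytoskeleton) and 0.413% (proton pump). Over rows at a mean of at least 1 FPKM, red-cell genes held 0%, as HBBB (mean 4.83 FPKM) is not counted among them.

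Counts of rows past 2-fold also moved. With equal totals, 88 rows were higher in control 1, 77 in control 2 and 57 in control 3, and 1005 were lower in control 2. At a mean of at least 50 FPKM, which tests fewer rows, higher and lower counts were 18 and 40 in control 1, 188 and 36 in control 2, 5 and 35 in control 3, and 10 and 42 in control 4. With loci of at least 300 bp, 15 rows were higher in control 4. Of 585 values of named genes, 577 moved by less than 1 SD and 8 by more, all 8 with equal totals. Those 8 are out of 117 genes, as the values with 1 animal left out could not move by 1 SD.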

Other observations

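Peptide precursors outside the usual islet hormones were added as a class after the values were seen. Its 18 rows held 0.0574, 0.0836, 0.0318 and 0.0178% of summed FPKM in controls 1 to 4, a 4.70-fold range, wider than that of the islet hormones. CARTPT, the CART peptide precursor found in fetal islet cells, was 112, 117, 76.8 and 67.6 FPKM. PENK, proenkephalin, was 25.1, 41.8, 8.84 and 7.94 FPKM, and VIP was 12.8, 8.84, 7.04 and 5.38 FPKM. Controls 1 and 2 were above controls 3 and 4 for CARTPT, PENK, VIP and POMC, which were picked from the class. GIP, also of this class, did not share that order, at 39.2, 314, 94.5 and 21.7 FPKM. No count of the order over the class or over all expressed rows is given. SCT (secretin) was listed at 0 in every animal.

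The vacuolar proton pump, also added then, held 1.76 ± 0.138% over 22 rows, but the 135-bp row of ATP6V0C was 78.4% of that. Next came ATP6V1G1 at 1154 ± 367 FPKM and ATP6V1E1 at 406 ± 98.8 FPKM. ATP6V1C1 and ATP6V0A1 were among its steadiest members in FPKM as deposited, with CVs of 1.98 and 2.79%. With every animal at the same summed FPKM, ATP6V1C1 became 76.9, 51.4, 74.0 and 75.4 in controls 1 to 4, a CV of 17.4%. Isoforms of the pump known from kidney and bone were near 0, with ATP6V1B1 at 0.335 FPKM and ATP6V0D2 at 0.0443.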
